A study of Mus musculus with 2 samples.

Results

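Spots along the midline of the mouse brain were picked out of a pair of spatial transcriptomic sections by a score built on genes of the midline and medial thalamus. For every spot with at least 2000 unique molecular identifiers (UMIs, tags that count each captured RNA molecule once), the UMIs of a gene were scaled to 10000 per spot and log-transformed. The score was the mean of 6 genes, Gbx2, Cbln1, Necab1, Calb2, Cbln4 and Slc17a6, minus the mean of 5 genes, the relay thalamus genes Prkcd, Tnnt1 and Plekhg1 and the habenula genes Tac2 and Nwd2. The 120 spots with the highest score in each section, 240 of the 7890 spots of the series, are called midline score spots below. The spots were thus chosen by the measured levels of these 11 genes.

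Both sections were coronal and contained the dorsal hippocampus of both hemispheres. Each came from 1 adult male ArcCreERT2::eYFPflx mouse, so both animals carried a Cre recombinase driven by the Arc promoter and a reporter that depends on it. The mouse labelled trained had learned to avoid a shock zone on a rotating arena, and the mouse labelled untrained had been placed on the same arena with the shock off. Brains were taken after a retention test given to both. RNA was captured with Visium, a slide with a fixed grid of barcoded spots that can each hold several cells of different kinds.

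Which label belongs to which section was not settled here. In the study's own section images a tear crosses the right side of the section called trained, whereas in the deposited positions the line of grid positions without tissue crosses the right side of the section labelled untrained. Every value is therefore given for the section labelled trained or the section labelled untrained, and a difference between them has no settled direction. With 1 mouse behind each label, spots are not replicates and no test was made. Intervals are 95% intervals and cover counting error only.

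The section labelled trained held 29515831 UMIs in 4152 spots and the section labelled untrained 59029131 UMIs in 3738 spots. Of these, 3651 and 3522 spots reached 2000 UMIs. The midline score spots had a median of 7949 and 17346 UMIs, against 6573 and 14226 in the remaining spots of at least 2000 UMIs. Mitochondrially encoded genes made up 10.5% and 15.2% of their pooled UMIs, against 12.3% and 16.2% in the remaining spots. The libraries shared 3448 barcodes because the barcodes mark fixed grid positions.

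The thalamus relays sensory and motor signals to the cortex. Its midline and intralaminar nuclei lie on both sides of the third ventricle below the habenula, project widely to the cortex, striatum and amygdala, and are known for roles in arousal and motivated behaviour. Neurons of these nuclei use glutamate, which Slc17a6 (the vesicular transporter VGLUT2) loads into vesicles, and many contain calretinin, the calcium-binding protein encoded by Calb2. Cbln1 and Cbln4 encode cerebellins, secreted proteins that link the presynaptic side of a synapse to postsynaptic partners such as the GluD receptors. Gbx2 is a homeobox factor needed for the thalamus to form, and Necab1 encodes a neuronal calcium-binding protein. Below the thalamus lies the hypothalamus, where oxytocin neurons and many GABA neurons reside.

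The midline score spots formed a vertical column under the habenula that reached far below it. Distances are in spot pitches, the distance between neighbouring spots, measured down from the median position of the 20 spots with the highest habenula score. Within 8 pitches of the midline lay 88.3% and 95% of the midline score spots (labels trained and untrained), against 25.9% and 24.8% of the remaining spots of at least 2000 UMIs. The median depth was 20.8 pitches in the section labelled trained and 12.1 in the section labelled untrained. The 3 depth bands used throughout, chosen after the map had been seen, are dorsal (less than 10 pitches), middle (10 to 20) and ventral (20 or more). In the section labelled trained 20, 37 and 63 spots fell in the dorsal, middle and ventral bands, and in the section labelled untrained 52, 45 and 23 did. The ventral band thus held 52.5% (Clopper-Pearson interval 43.2 to 61.7) and 19.2% (12.6 to 27.4) of the midline score spots. These shares depended on the score, at 21.7% and 5.0% with no subtraction, and the share in the section labelled untrained was 34.2% with 240 spots per section.

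**Figure D1:**
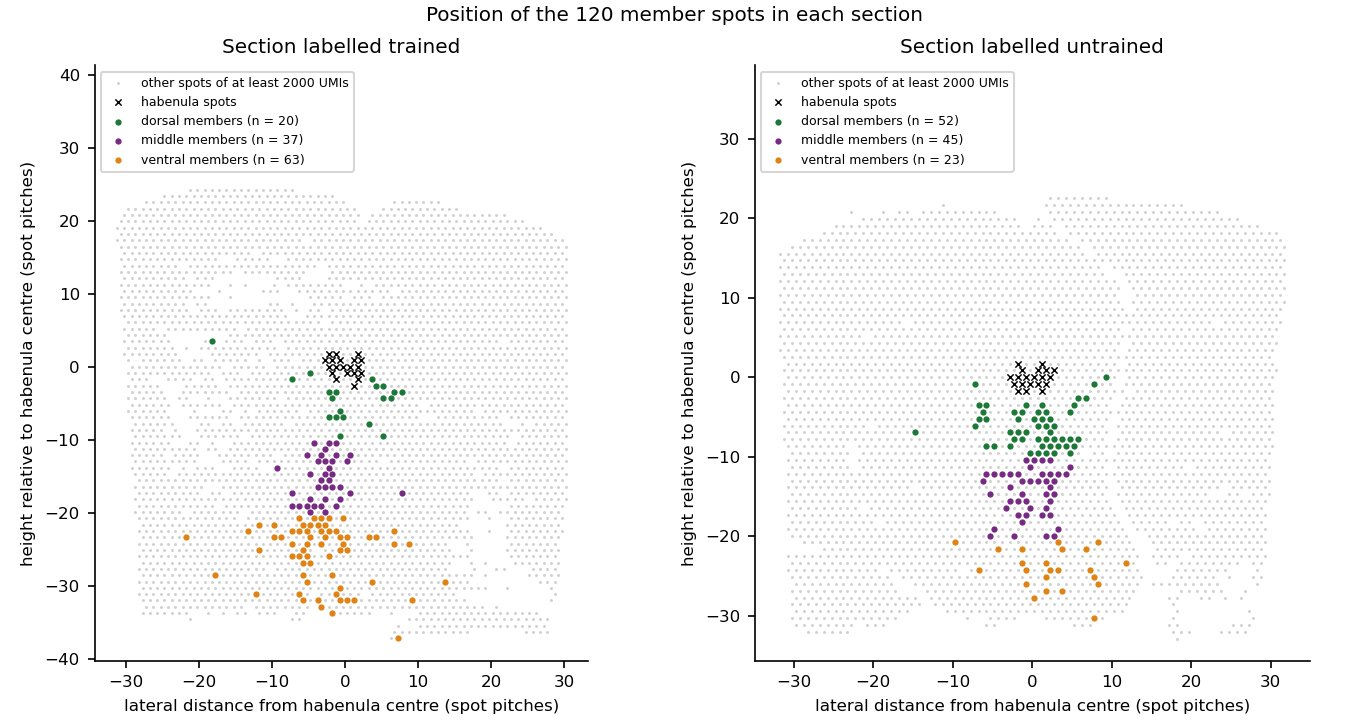
Map of the midline score spots in the section labelled trained and the section labelled untrained. Each point is a spot, placed by its distance in spot pitches to the side of and below the habenula centre, and coloured by spot set. The 120 midline score spots of each section form a column under the habenula, with a median depth of 20.8 pitches in the section labelled trained and 12.1 in the section labelled untrained.

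The spots were clumped rather than evenly spread. In the section labelled trained they fell into 45 patches of touching spots, the largest with 38, 18 and 5 spots, and 31 spots (25.8%) touched no other midline score spot. In the section labelled untrained there were 32 patches, the largest with 31, 23 and 9 spots, and 19 spots (15.8%) stood alone. The largest patch of the section labelled trained had a median depth of 22.5 pitches, in the ventral band, whereas the largest of the section labelled untrained had a median depth of 7.79 pitches, in the dorsal band. A mean of 1.72 and 2.25 neighbours of each midline score spot were midline score spots too.

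The 6 added genes chose these spots, so their levels describe the choice and support nothing. Gbx2 (chr1:89927956-89931179, minus strand, 2 exons, build GRCm38/mm10) stood at 131 CPM (UMIs scaled to a total of 1000000 over the pooled spots) in the midline score spots of the section labelled trained and at 73.8 in those of the section labelled untrained, against 11.3 and 8.33 in the remaining spots. Calb2 (chr8:110137502-110168210, minus strand, 11 exons) stood at 694 and 855 CPM against 78.8 and 121. Slc17a6 (chr7:51622006-51671119, plus strand, 12 exons) stood at 408 and 298 CPM against 85.8 and 81.0. These 3 genes were thus higher in the midline score spots of both sections, by the rule itself.

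The cerebellins and Necab1 were split between the sections. Cbln1 (chr8:87468405-87472609, minus strand) stood at 111 and 206 CPM in the midline score spots of the sections labelled trained and untrained, against 23.1 and 36.3 in the remaining spots. Cbln4 (chr2:172036233-172043466, minus strand, 3 exons) stood at 70.6 and 150 CPM against 11.4 and 20, so both cerebellins were higher in the midline score spots of the section labelled untrained than in those of the section labelled trained. Necab1 (chr4:14952245-15149794, minus strand, 13 exons) went the other way, at 304 and 136 CPM against 63.7 and 40.8. Genes on the other strand overlap Cbln1, Gbx2 and Necab1. The strand used for counting was not given in the sources used here, so it is not known here whether reads of such pairs were kept apart. Expression is not ranked between genes, because only the 3′ end of each RNA is captured. Where an added gene is said below to lead in a spot, it had the highest term in the score of that spot, which depends on how well each gene is captured as well as on its expression.

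**Figure D2:**
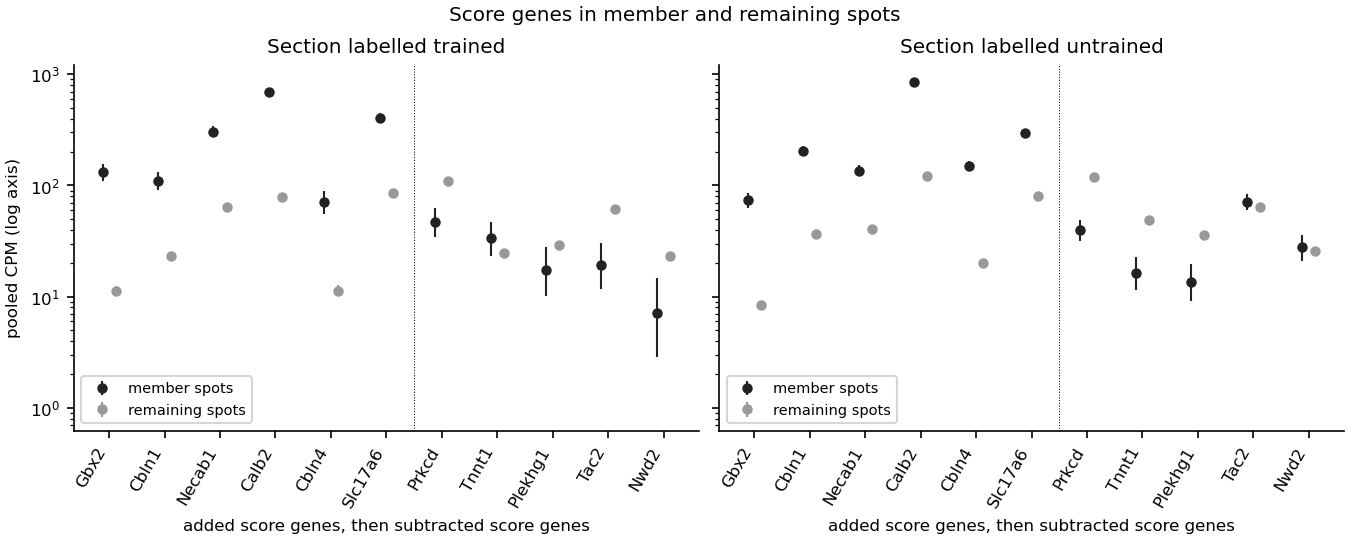
CPM of the 6 genes added to the score and, right of the dotted line, the 5 subtracted, in the midline score spots (member spots) and the remaining spots of each section. The axis is logarithmic and bars are exact Poisson 95% intervals. Calb2 stood at 694 and 855 CPM in the midline score spots and at 78.8 and 121 in the remaining spots.

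Of the subtracted genes, Prkcd, a protein kinase C that marks relay neurons of the thalamus, stood at 47.1 and 40 CPM in the midline score spots against 1083 and 1002 in relay spots, the 120 spots per section outside the midline score spots with the highest relay score. Tac2, which encodes neurokinin B and marks the medial habenula, stood at 19.4 CPM in the midline score spots of the section labelled trained and at 71.4 in those of the section labelled untrained, against 1513 and 3050 in the habenula spots. The habenula spots were chosen by Tac2 and other habenula genes, so this contrast too was set by the choice. No UMI of any subtracted gene was found in 54 (45%) and 17 (14.2%) of the midline score spots. The score of the members ran from 0.658 to 1.72 (median 0.831) in the section labelled trained and from 0.682 to 1.28 (median 0.796) in the section labelled untrained. The next spot below the threshold scored 0.657 and 0.681.

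Not every midline score spot carried every added gene. Calb2 contributed most to the summed score, with 30.2% and 31.4% of it, followed by Slc17a6 with 24.2% and 21.2%. Calb2 had the highest term among the added genes in 73 of 120 midline score spots of the section labelled trained and in 91 of 120 of the section labelled untrained. In the section labelled trained Slc17a6 led in 23 further spots, Necab1 in 14, Cbln1 in 7 and Gbx2 in 3. In the section labelled untrained Cbln1 led in 19, Slc17a6 in 7, Cbln4 in 2 and Necab1 in 1.

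At least 1 UMI of Calb2 was found in 95% and 97.5% of the midline score spots. The same share was 7.5% and 30% in relay spots, which were chosen for low levels of the added genes, Calb2 among them. After each spot had been thinned to 2000 UMIs the shares were 68.3% and 69.2% in midline score spots and 11.8% and 15.9% in the remaining spots. Cbln4 was found in 39.2% and 82.5% of the midline score spots, and thinned in 8.33% and 27.5%. At least 4 of the 6 genes were found in 92 (76.7%) and 118 (98.3%) of the midline score spots at full depth, and in 12 (10%) and 7 (5.83%) after thinning, where the remaining spots had 0.255% and 0.353%. For this last count the section with more UMIs per spot was the higher at full depth but not after thinning, whereas Cbln4 remained the more often found in it.

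Across the 120 midline score spots of a section, Calb2 and Cbln1 were inversely related, with a Pearson correlation of −0.336 in the section labelled trained and −0.623 in the section labelled untrained. Such spots share a library and neighbouring spots share tissue, and they were chosen on the sum of these same values, so these correlations are descriptive. Cbln1 and Cbln4 were related in opposite ways, at −0.239 and 0.332. Gbx2 and Calb2 were weakly positive at 0.181 and 0.320. Necab1 was lower in deeper spots (−0.306 and −0.511), as were Slc17a6 (−0.377 and −0.305) and Gbx2 (−0.200 and −0.457), whereas Calb2 showed little relation to depth (0.003 and 0.107). The deposited Moran's I, a measure of how far neighbouring spots share a gene's level over the whole section, was 0.528 and 0.603 for Calb2, which ranked 15 and 5 among all genes listed. It was 0.092 and 0.408 for Cbln4.

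The column held different tissue at its top and its bottom. Tcf7l2, a Wnt effector and a lasting marker of thalamic neurons (chr19:55741820-55933654, plus strand, 14 exons), stood at 505, 458 and 229 CPM in the dorsal, middle and ventral midline score spots of the section labelled trained. In the section labelled untrained it stood at 410, 327 and 60.4 CPM, against 80.5 and 91.2 in the remaining spots of the respective sections. Ntng1, the axonal adhesion protein netrin-G1 of thalamic neurons, ran from 252 and 291 down to 123 CPM and from 182 and 116 down to 50.8. Zic1, a zinc finger patterning factor, ran from 302 and 193 to 129 CPM and from 115 and 54.3 to 43.5. All 3 were highest in the dorsal or middle band of both sections.

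Genes of the hypothalamus and of GABA neurons ran the other way. Oxt, which encodes oxytocin (chr2:130576173-130577054, plus strand, 3 exons), stood at 42.1, 134 and 10547 CPM in the dorsal, middle and ventral spots of the section labelled trained and at 4.25, 5.18 and 1049 in those of the section labelled untrained. Gad1, which makes GABA, stood at 28.1, 29.4 and 168 CPM and at 21.3, 55.6 and 96.7. Hap1, a huntingtin-associated protein abundant in the hypothalamus, stood at 63.1, 131 and 350 CPM and at 153, 246 and 387. Slc32a1, which loads GABA into vesicles, had no UMI in the dorsal spots of the section labelled trained, was at 9.81 and 146 CPM in its middle and ventral spots, and stood at 11.7, 55.6 and 106 CPM in the section labelled untrained.

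**Figure D3:**
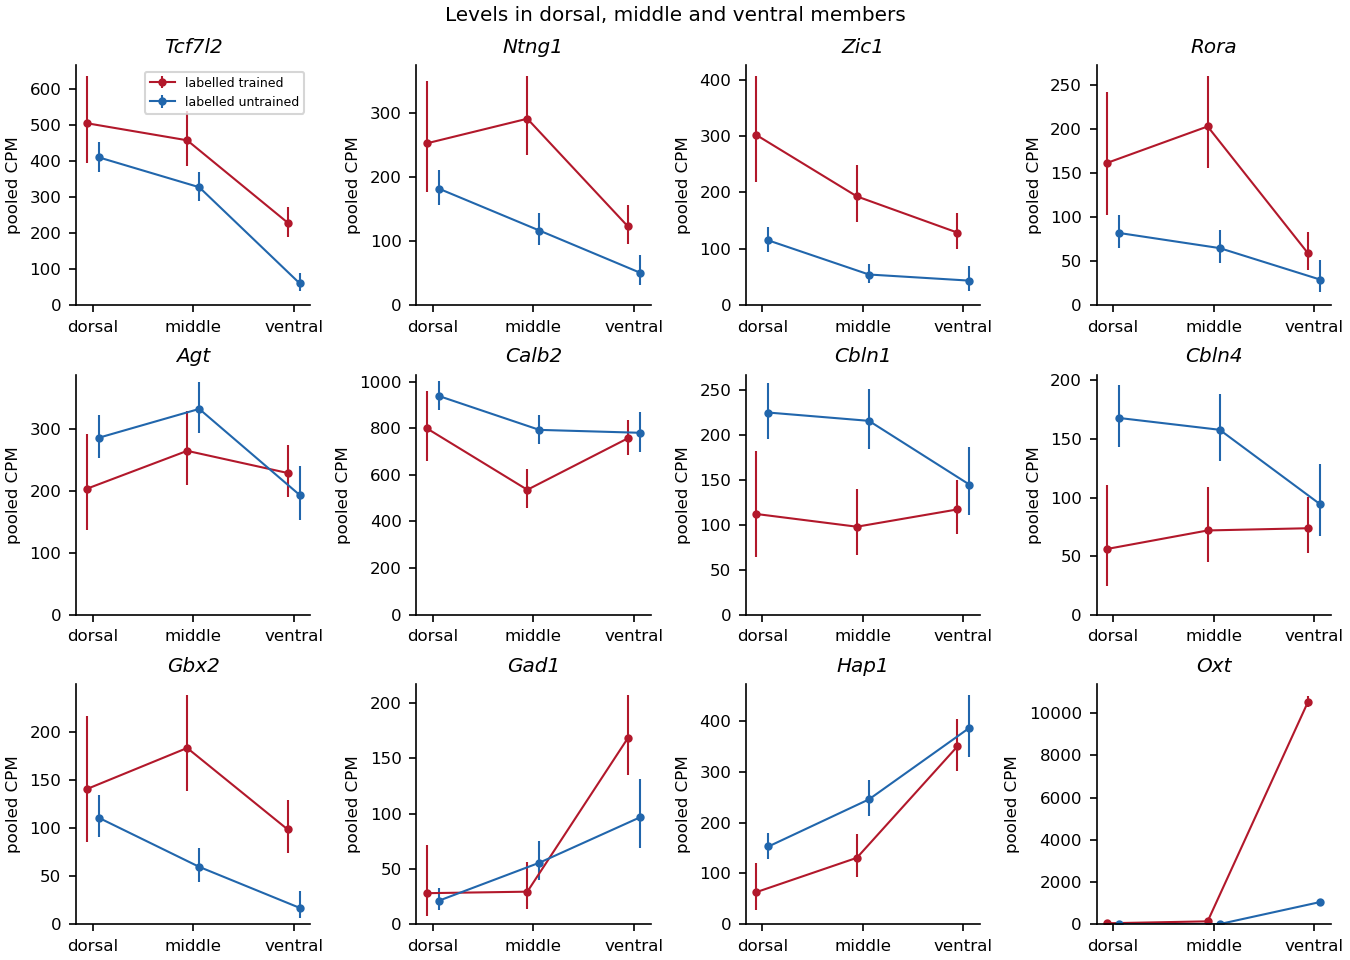
CPM of 12 genes in the dorsal, middle and ventral midline score spots of both sections, on linear axes from 0, with exact Poisson 95% intervals. Tcf7l2, Ntng1 and Zic1 were lower in the ventral band, at 229, 123 and 129 CPM in the section labelled trained, while Oxt reached 10547 and 1049 CPM there.

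Of 1121 genes with enough UMIs in the bands, 11 (0.981%) were at least 2-fold higher and 26 (2.32%) at least 2-fold lower in the dorsal than in the ventral spots of the section labelled trained, and 15 (1.34%) and 12 (1.07%) in those of the section labelled untrained. Of all 1121, 7 (0.624%) were at least 2-fold higher in the dorsal than in the ventral spots of both sections and 10 (0.892%) at least 2-fold lower. The 7 were Adarb1, Gm42418, Nrn1, Ntng1, Pdp1, Tcf7l2 and Zic1. The 10 were 6330403K07Rik, Ahi1, B630019K06Rik, Baiap3, Gaa, Hap1, Minar2, Oxt, Resp18 and Sst. After the same spots had been thinned to 2000 UMIs, 0 of 190 genes (0%) were higher and 1 (0.526%) lower in both sections. Of 14 pan-thalamic genes, 9 and 14 were at least 2-fold higher in the dorsal than in the ventral spots of the sections labelled trained and untrained, and none was lower, against 15.7% and 9% of all 11949 genes that reached the same lower minimum. Of 6 measured hypothalamus genes, 6 and 5 were at least 2-fold lower dorsally, as were 7 and 8 of 10 genes of reticular and GABA neurons, against 12.8% and 8.95% of all genes. The summed pan-thalamic genes had a median of 1767 and 2150 CPM per dorsal and middle spot of the section labelled trained against 412 in the remaining spots, and of 1398 and 931 against 425 in the section labelled untrained. The middle spots of the section labelled untrained also carried genes of the ventral spots, with Sst at 37.2, 413 and 193 CPM, Resp18 at 585, 1035 and 1508 and Baiap3 at 48.9, 135 and 210 in its dorsal, middle and ventral spots. Their summed genes of reticular and GABA neurons had a median of 386 CPM per middle spot, between 190 in the dorsal and 712 in the ventral spots. Pan-thalamic genes do not by themselves set medial thalamus apart from relay thalamus, since relay spots carry the same genes. The summed level of the genes listed for the midline and paraventricular thalamus had a median of 933 and 1589 CPM per dorsal and middle spot of the section labelled trained, against 891 in the remaining spots, but of 893 and 809 against 1044 in the section labelled untrained. The summed relay genes had a median of 1072 and 966 CPM against 571 in the section labelled trained and of 652 and 544 against 535 in the section labelled untrained. By these summed medians the midline list was higher than in the remaining spots in the section labelled trained and lower in the section labelled untrained. Summed relay genes were not lower in either band. Such sums weigh abundant genes most. By gene, over all midline score spots, the median log2 ratio was 0.92 and 0.61 for 7 measured midline genes. It was −0.63 and −0.44 for 9 relay genes. The pooled midline sum over all midline score spots was 1238 and 815 CPM against 1353 and 1316. The summed pan-thalamic level of the ventral spots had a median of 648 CPM per spot in the section labelled trained, above the 412 of the remaining spots, and of 356 in the section labelled untrained, below their 425.

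The added genes themselves were also uneven along the column. Gbx2 stood at 140, 183 and 98.4 CPM in the dorsal, middle and ventral spots of the section labelled trained and at 111, 59.5 and 16.9 in those of the section labelled untrained. Necab1 stood at 379, 399 and 229 CPM and at 205, 91.9 and 62.8. Calb2 was spread more evenly, at 800, 536 and 757 CPM and at 938, 793 and 781. Cbln1 stood at 112, 98.1 and 117 CPM and at 225, 216 and 145, so it was flat in the section labelled trained and lowest ventrally in the section labelled untrained.

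Genes outside the score were compared between the midline score spots and the remaining spots of the same section. These contrasts rest on spots that the score chose, so they describe the spots. Of 1720 genes with at least 100 UMIs in the midline score spots of each section, 50 (2.91%) were at least 2-fold higher and 21 (1.22%) at least 2-fold lower in the section labelled trained. The numbers were 39 (2.27%) and 13 (0.756%) in the section labelled untrained. In both sections 29 genes (1.69%) were higher and 10 (0.581%) lower. The higher share was 0.951%, or 15 of 1577 genes, with Calb2 left out of the score and 0.61%, or 2 of 328, when spots were chosen after thinning to 2000 UMIs, and with no minimum of UMIs it was 7.05% of 16646. Over the alternatives with the minimum kept, the lower share ran from 0.194%, or 1 of 515, in the largest patch of touching spots to 0.93%, or 16 of 1720, when levels were averaged over spots, and with no minimum it was 2.36%. The minimum was set on the midline score spots alone, here and in the comparisons with other spot sets below. It leaves out genes that were low in those spots, which favours higher over lower genes. With 100 UMIs required over midline score and remaining spots together, 3.31% and 1.94% of 11949 genes were higher and 5.95% and 5.1% lower. The median log2 ratio over all 1720 genes was 0.10 and 0.12. In such spots, more cells of a type and more RNA per cell cannot be told apart.

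The higher genes differed in where along the column they were high. Tcf7l2 stood at 341 and 312 CPM in the midline score spots of the sections labelled trained and untrained against 80.5 and 91.2, a log2 ratio of 2.08 (1.91 to 2.25) and 1.78 (1.66 to 1.89). Ntng1 stood at 194 and 133 CPM against 59.3 and 61.8, a log2 ratio of 1.72 and 1.10. Cox6a2, a subunit of cytochrome c oxidase, had log2 ratios of 1.64 and 1.13, and its CPM fell from 161 and 137 in the dorsal to 45.4 and 19.3 in the ventral spots.

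Genes above the remaining spots in every band of both sections included products of astrocytes. Agt, which encodes angiotensinogen and is made by astrocytes in the brain, stood at 236 and 285 CPM against 74.0 and 112, a log2 ratio of 1.68 (1.47 to 1.87) and 1.35 (1.23 to 1.47). Its level was 203, 265 and 229 CPM down the bands in the section labelled trained and 286, 332 and 193 in the section labelled untrained. Slc6a11, the GABA transporter GAT3 of astrocytes, had log2 ratios of 1.25 and 1.12, with 154, 196 and 202 CPM down the bands of the section labelled trained and 315, 316 and 295 in the section labelled untrained. Gap43, a growth cone protein kept by plastic neurons, stood at 875 and 705 CPM against 344 and 276, a log2 ratio of 1.35 in each section. Sparc, a secreted matricellular glycoprotein, stood at 1260 and 936 CPM against 477 and 423. Zcchc12, a transcriptional coactivator of neurons, stood at 291 and 282 CPM against 88.3 and 84.1, a log2 ratio of 1.72 and 1.75. Its level was highest in the ventral spots, at 252, 206 and 350 CPM down the bands of the section labelled trained and 264, 278 and 334 in the section labelled untrained. The enzymes Pcbd1, of biopterin recycling, and Ddah1, which breaks down methylated arginines, had log2 ratios of 1.86 and 1.73 and of 1.26 and 1.14. Ddah1 was lowest in the ventral spots, at 260, 226 and 110 CPM and at 206, 151 and 89.4.

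A further group was higher in the ventral than in the dorsal spots. Oxt stood at 5753 and 208 CPM in the midline score spots against 491 and 56.9, a log2 ratio of 3.55 and 1.87. That ratio depended on which spots the score picked. For the label untrained it was −0.55 with 60 midline score spots, −1.05 with Calb2 left out of the score, −2.86 with no subtraction, −3.69 in the largest patch of touching spots, −4.21 in spots that touched at least 2 others and −3.52 in dorsal and middle spots. For the label trained it was −0.40 with no subtraction and −2.21 in dorsal and middle spots. Baiap3, which acts in dense-core vesicle traffic, stood at 135 and 111 CPM against 35.3 and 29.5, a log2 ratio of 1.94 and 1.92. Gpx3, a secreted glutathione peroxidase, stood at 118 and 184 CPM against 31.9 and 40.2, a log2 ratio of 1.89 and 2.2. Its level was 21.0, 52.3 and 182 CPM in the dorsal, middle and ventral spots of the section labelled trained and 121, 195 and 307 in those of the section labelled untrained. Resp18, a protein of the dense-core vesicle pathway, had log2 ratios of 1.51 and 1.36, and Hap1 1.61 and 1.25.

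**Figure D4:**
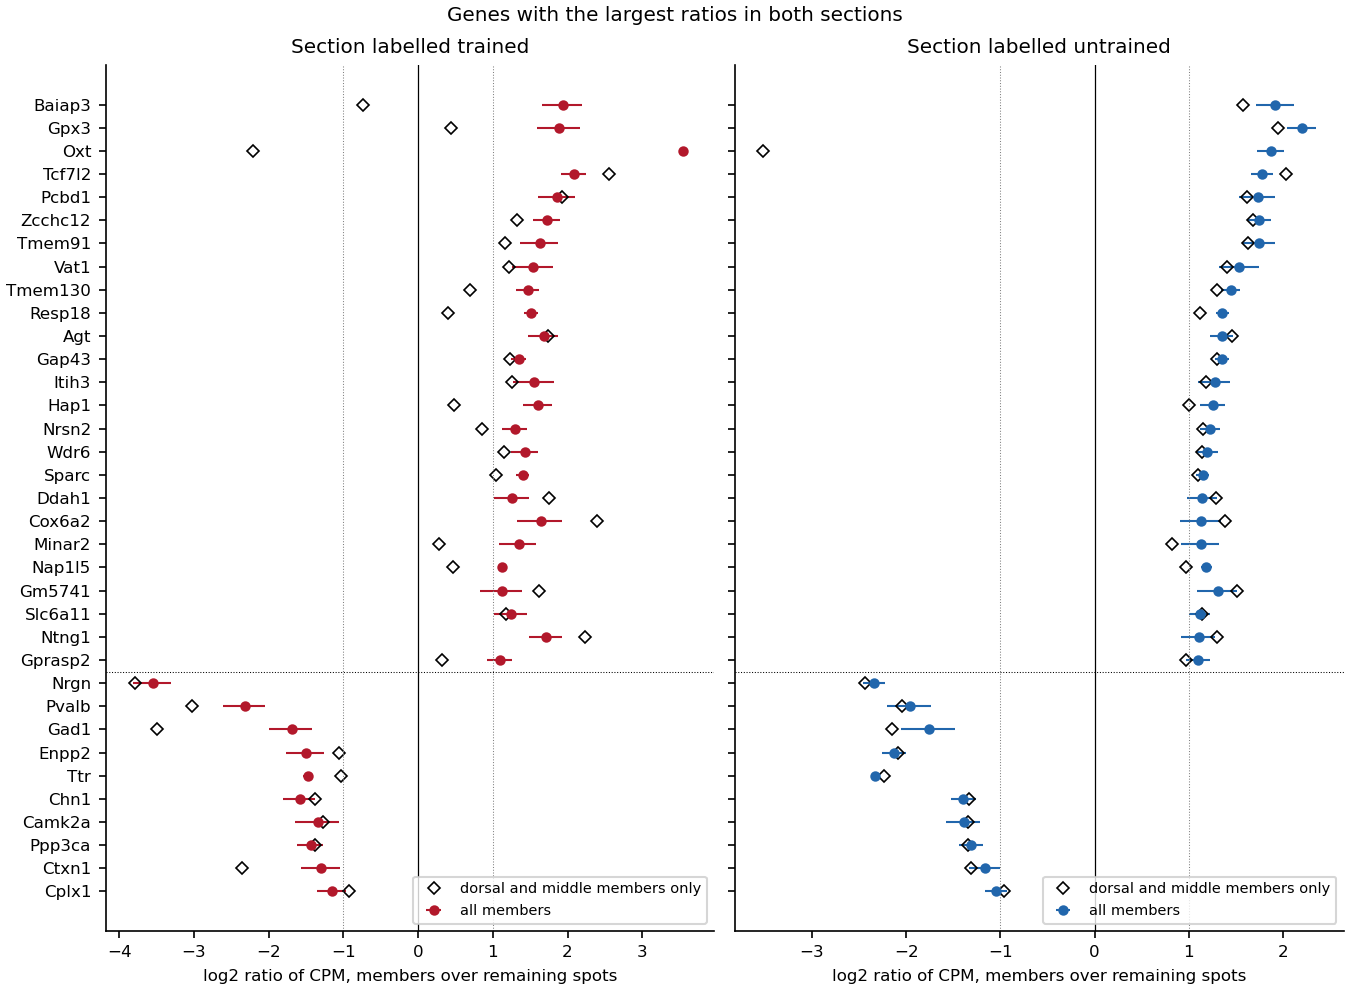
Log2 ratio of midline score spots over remaining spots for the genes that led in either direction in both sections, with exact 95% intervals. Filled points are all midline score spots and open diamonds the dorsal and middle ones alone. Tcf7l2 lay at 2.08 and 1.78 and Nrgn at −3.55 and −2.34 in the sections labelled trained and untrained.

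When only the dorsal and middle spots were kept, a choice made after seeing the data, 723 genes had enough UMIs. Of these, 10 (1.38%) were at least 2-fold higher and 3 (0.415%) at least 2-fold lower than the remaining spots in both sections, shares close to the 1.69% and 0.581% for all midline score spots, over fewer genes. The higher genes were Agt, Ddah1, Gap43, Ntng1, Rab3c, Rims3, Sparc, Tcf7l2, Timp3 and Wdr6. Tcf7l2 reached a log2 ratio of 2.56 and 2.03 and Ntng1 2.24 and 1.30. Rims3 and Rab3c, which act in transmitter release, had log2 ratios of 1.43 and 1.19 and of 1.08 and 1.05. Timp3, an inhibitor of matrix metalloproteinases, had 1.76 and 1.11. Oxt turned to −2.21 and −3.52, and Baiap3 to −0.74 in the section labelled trained.

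The genes lowest in the midline score spots included those of cortical and hippocampal neurons and of inhibitory neurons. Nrgn, the calmodulin-binding neurogranin of forebrain pyramidal neurons, stood at 138 and 286 CPM against 1624 and 1454, a log2 ratio of −3.55 (−3.81 to −3.31) and −2.34 (−2.46 to −2.23). Camk2a had log2 ratios of −1.34 and −1.39, and Ppp3ca, the catalytic subunit of calcineurin, −1.44 and −1.31. Pvalb, the parvalbumin of fast-spiking inhibitory neurons, had −2.32 and −1.96, and Gad1 −1.69 and −1.76. Ttr, the transthyretin of the choroid plexus, stood at 1994 and 3709 CPM against 5523 and 18628, a log2 ratio of −1.47 and −2.33 in pooled counts. Its median per spot went the other way, at 1736 and 3246 CPM in the midline score spots against 630.1 and 2749 in the remaining spots, whose highest spots reached 342273 and 313362 CPM.

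Lists of genes by function were set against the 11949 genes that reached a lower minimum, of which 3.31% and 1.94% were at least 2-fold higher and 5.95% and 5.1% at least 2-fold lower in the midline score spots. Their median log2 ratio was 0.03 and 0.01. Of 14 pan-thalamic genes, 9 and 4 were at least 2-fold higher and none lower, with a median log2 ratio of 1.36 and 0.35. Of 9 relay thalamus genes, 1 and 0 were higher and 2 lower in each section. Of 21 measured homeobox and patterning factors, 10 and 6 were higher and 0 and 3 lower, with a median of 0.98 and 0.13. Lhx9, a LIM homeobox factor, had log2 ratios of 2.30 and 1.81, and the homeobox factor Shox2 1.85 and 1.48. Of 7 measured genes listed for the midline and paraventricular thalamus, 3 and 2 were higher and 0 and 1 lower.

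Of the cerebellin pathway, 14 genes were measured, of which 3 were at least 2-fold higher and 2 at least 2-fold lower in each section. The 3 higher genes were Cbln1 and Cbln4, which the rule used, and Cbln2. Cbln2 stood at 50.2 CPM in the midline score spots of the section labelled trained and at 129 in those of the section labelled untrained, against 24.9 and 36.7, a log2 ratio of 1.03 and 1.82. The neuronal pentraxin Nptx1, a secreted synaptic protein, had log2 ratios of −1.96 and −1.64. Of 18 genes of calcium-binding proteins, 2 were higher and 4 and 3 lower. The 2 higher genes were Calb2 and Necab1, which the rule used, and Calb1, which encodes calbindin, had 0.92 and 0.43.

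Genes of transmission and excitability differed in both directions. Slc17a7, the vesicular glutamate transporter VGLUT1 of cortical neurons, had log2 ratios of −2.97 and −1.91, opposite to Slc17a6. Slc17a8, the transporter VGLUT3, had 1.32 and 2.06. Of 16 measured channels of burst firing and pacemaking, 3 and 2 were at least 2-fold higher and 3 lower in each section, and the median log2 ratio was −0.23 and −0.25. Cacna1g, a T-type calcium channel of thalamic bursts, had log2 ratios of 1.40 and 0.75. Hcn4, a pacemaker channel, had 1.83 and 0.66, and its relative Hcn3 1.36 and 1.46, on few UMIs. The potassium channel gene Kcnk3 had 0.39 and 1.01. The lower channels included Trpc4 at −1.90 and −1.66, Cacna1i at −1.12 and −0.35 and Cacna1h at −0.73 and −1.06, and Trpc4 alone of the 16 was at least 2-fold lower in both sections.

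Immediate early genes, which neurons switch on with activity, were low relative to the remaining spots. Of 22 such genes none was at least 2-fold higher and 11 and 9 were at least 2-fold lower in the midline score spots, with a median log2 ratio of −1.08 and −0.72. Arc stood at 4.09 and 12.7 CPM against 77.5 and 69.8, and Egr1 at 32.8 and 51.7 against 155 and 137. Fos differed little, at 30.7 and 35.7 CPM against 31.8 and 26.5. Relative to relay spots, 3 and 5 of the 22 genes were at least 2-fold higher and 1 and 3 lower, against 12.5% and 8.63% and against 6.23% and 4.98% of all 11949 genes.

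Markers of other cell kinds passed 2-fold in some lists and not in others. The 8 oligodendrocyte genes had a median log2 ratio of −1.18 and −0.71, with 7 and 0 at least 2-fold lower, and their summed level had a median of 2222 and 3849 CPM per midline score spot against 4621 and 4977 in the remaining spots. Of 9 genes of the choroid plexus and ependyma, 1 and 0 were at least 2-fold higher and 4 and 8 lower. Their summed level had nevertheless a median of 1887 and 3569 CPM per midline score spot against 903 and 3240 in the remaining spots. Of 9 astrocyte genes, 2 were higher and 1 lower in each section, the lower being Gfap at −1.32 and −1.68. Of 8 microglial genes 1 and 0 were lower, and of 8 endothelial and mural genes none passed 2-fold. Of 7 measured genes of amygdala and cortex 6 were lower in each section. The part of these cell kinds in the other differences was not tested.

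Set against relay spots, the midline score spots showed more differences than against the section at large. The relay score subtracted the added genes, so the spot sets came from opposite ends of related scores. A larger number of differences was favoured by that choice. Of 1720 genes, 93 (5.41%) and 79 (4.59%) were at least 2-fold higher in the sections labelled trained and untrained, and 35 (2.03%) and 50 (2.91%) at least 2-fold lower. In both sections 64 (3.72%) were at least 2-fold higher and 28 (1.63%) at least 2-fold lower. Over the alternatives with a minimum, the higher share ran from 1.83% (6 of 328, thinned) to 4.85% (25 of 515, largest patch). The lower share ran from 0.553% (4 of 723, dorsal and middle spots) to 2% (64 of 3199, 240 spots per section). Baiap3 had log2 ratios of 4.75 and 4.20, Gpx3 4.55 and 3.83, Tmem91 3.45 and 3.34, Fxyd6, a regulator of the sodium pump, 3.65 and 3.25, and Hap1 3.25 and 2.60. Oxt stood at 21.7 CPM in the relay spots of the section labelled trained and had no UMI in those of the section labelled untrained. Pcp4, a calmodulin regulator, stood at 2614 and 1259 CPM against 14597 and 10455 in relay spots. Rora, a nuclear receptor of relay neurons, had log2 ratios of −1.91 and −2.68, the diacylglycerol-regulated exchange factor Rasgrp1 −1.85 and −2.47, and the sodium-calcium exchanger Slc24a2 −2.29 and −2.11. Tcf7l2 differed little from relay spots, at −0.09 and −0.22.

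Against 120 spots per section with the highest level of 9 hypothalamus genes, 28 (1.63%) and 8 (0.465%) of 1720 genes were at least 2-fold higher and 7 (0.407%) and 5 (0.291%) at least 2-fold lower. In both sections 5 (0.291%) were higher and 2 (0.116%) lower. Against the spots that touched a midline score spot but were not chosen, 313 and 270 in number, none was at least 2-fold higher in either section (0% of 1720), and 1 (0.0581%) and 2 (0.116%) were at least 2-fold lower.

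Between the sections, the midline score spots differed in directions that the labels do not settle and in their depth bands. Of 2635 genes with at least 200 UMIs over the midline score spots of both sections, 50 (1.9%) were at least 2-fold higher in the section labelled trained and 25 (0.949%) at least 2-fold lower, against 1.02% and 0.417% in the remaining spots. With mitochondrial genes left out of the totals the counts were 35 and 37. Relative to the difference in the remaining spots, 5 genes (0.19%) were at least 2-fold higher and 7 (0.266%) at least 2-fold lower. Within bands, 3.38%, 4.36% and 3.49% of genes were at least 2-fold higher in the dorsal, middle and ventral spots of the section labelled trained, and 3.15%, 3.34% and 1.75% at least 2-fold lower.

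Of the 12 genes with the widest gaps beyond that in the remaining spots, Oxt had a log2 ratio of trained over untrained labels of 4.79 (4.65 to 4.93) in the midline score spots and 3.11 in the remaining spots. It was 3.25, 4.54 and 3.33 within the dorsal, middle and ventral bands. The dorsal ratio rests on few UMIs in both sections, at 42.1 against 4.25 CPM. The middle ratio rests on few UMIs in the section labelled untrained, at 134 against 5.18 CPM. The tyrosine phosphatase gene Ptpn3 had 1.29 (0.88 to 1.70) against 0.02 in the remaining spots, and 1.37, 2.08 and 2.02 within bands. Zic1 had 1.14 (0.82 to 1.46) against 0.02, and 1.40, 1.82 and 1.54 within bands. Ildr2 had 1.14 against 0.02, and 0.99, 1.88 and 1.97 within bands. These 4 genes were higher in the section labelled trained in every band.

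Other genes were higher in the section labelled untrained. Ctxn3, a cortexin, stood at 12.3 CPM in the midline score spots of the section labelled trained, a log2 ratio of −3.57 (−4.59 to −2.80) against −1.95 in the remaining spots, and had no UMI in the dorsal spots of that section. It was −2.71 in the middle and −2.19 in the ventral band. Cdh13, the cell adhesion protein T-cadherin, had −1.52 (−2.07 to −1.03) against −0.17, and −2.44, −1.17 and −1.53 within bands. Lypd6b, a Ly6 family gene, had −1.32 against −0.23, and −2.36 and −1.22 in the dorsal and middle but 0.60 in the ventral band. Hpca and Slc17a7, genes of forebrain excitatory neurons, had −1.34 and −1.33 against −0.20 and −0.27. Nrgn had −1.05 against 0.16, but −0.09 in the dorsal band.

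**Figure D5:**
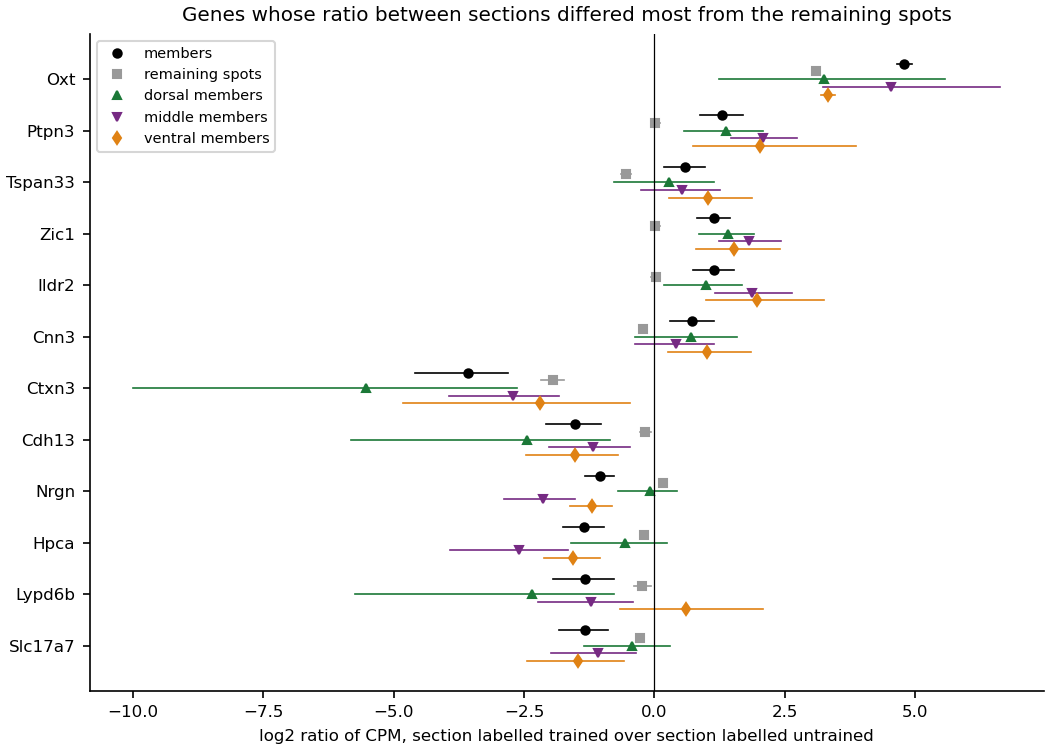
Log2 ratio between the sections (trained over untrained label) for 12 genes in the midline score spots, the remaining spots and each band, with exact 95% intervals drawn only between −10 and 12. Zic1 lay at 1.14 in the midline score spots and 0.02 in the remaining spots, and Ctxn3 at −3.57 and −1.95, with no lower bound in the dorsal band, where the section labelled trained had no UMI.

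Of the added genes, Necab1 had a log2 ratio of trained over untrained labels of 1.16 in the midline score spots, Gbx2 0.83 and Slc17a6 0.45, whereas Cbln1 had −0.90 and Cbln4 −1.08. Cbln2 had −1.35. In the remaining spots the same ratios were 0.64, 0.43, 0.08, −0.65, −0.81 and −0.56. Cbln1 was lower in the section labelled trained in every band, at −0.96, −1.12 and −0.31, and Gbx2 higher, at 0.37, 1.62 and 2.45.

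The genes whose level followed the score most closely over all spots of at least 2000 UMIs, outside the score genes, were 6330403K07Rik with a Pearson correlation of 0.29 and 0.46, Ly6h with 0.29 and 0.38, Zcchc12 with 0.26 and 0.38, Resp18 with 0.26 and 0.36, Bex1 with 0.28 and 0.34 and Gpx3 with 0.22 and 0.37. These are descriptions over 3651 and 3522 spots that share a library and, between neighbours, tissue.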

How the data were processed

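The authors trimmed reads with TrimGalore and aligned and counted them with Space Ranger 2.0.0 on the 10x mm10 reference, and deposited filtered counts of UMIs per gene and spot for each section. The deposited spatial-enrichment tables by the authors also hold counts per gene, Moran's I (a score) and its p-value and a median signal per gene, of which the p-value and the signal were not used here. Members and gene lists were chosen with earlier results of these data known. UMIs of a spot set were pooled and scaled to CPM, and log2 ratios used a pseudocount of 0.5 UMI. Intervals were exact Poisson (CPM), Clopper-Pearson (shares) and conditional binomial (ratios), all at 95% (scipy 1.17.1, numpy 2.4.6, pandas 2.3.3, matplotlib 3.10.9, Python 3.11.15). Only the ratio of midline score spots over remaining spots and its interval were tested on simulated data. Those data were drawn from the Poisson model that the interval assumes. Doublet calling does not apply to spots. Gene positions came from GENCODE on GRCm38/mm10. Of 318 named and listed genes, 125 overlap a gene on the opposite strand, among them Baiap3, Tmem91, Zic1, Ntng1, Resp18, Gad1, Chn1, Ppp3ca, Slc6a11, Cox6a2, Wdr6, Cdh13, Hpca, Lypd6b, Ptpn3, Ildr2, Cnn3 and Rora, and are uncertain. Thinning to 2000 UMIs used seed 7.

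Named genes were the 11 score genes and, with at least 100 UMIs in the members of each section, the 25 highest and 10 lowest by the smaller of the log2 ratios over the remaining spots, the 10 highest and 10 lowest over relay spots, and the 6 most correlated with the score. Between sections they were the 6 highest and 6 lowest by the difference from the remaining spots, with at least 200 UMIs in all. Of these, a selection is described. Genes named for the bands and for the dorsal and middle spots were chosen after their values were seen. Alternatives are given with the closing observations.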

Additional observations from a re-analysis of the deposited data

Results flagged for a closer look

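Of 191 genes considered, which are the named genes and the listed genes at least 2-fold apart in either section, 27 had log2 ratios of opposite sign in the sections. In 7 of them the counting interval also lay off 0 in each section, as in 15 of the 1720 genes compared, of which 353 had opposite signs. The difference was not tested, with 1 section behind each label. The log2 ratio of midline score spots over remaining spots was 0.94 in the section labelled trained and −1.64 in the section labelled untrained for Cartpt, a feeding peptide of the hypothalamus, and 1.07 and −1.65 for Ccdc153, a gene of ciliated cells. It was 0.98 and −1.24 for Otx2, a homeobox factor made by the choroid plexus. Pdyn, which encodes prodynorphin, had −0.99 and 1.42, with 0, 19.6 and 24.6 CPM in the dorsal, middle and ventral spots of the section labelled trained and 62.7, 88.0 and 4.83 in those of the section labelled untrained. Rgs16, a regulator of G protein signalling, had 1.57 and −0.52, and the nuclear receptor Rora 0.59 and −0.33. Cnn3, a calponin, had 0.44 and −0.51. The bands of the sections held different shares of these spots (20, 37 and 63 against 52, 45 and 23), and the part of that in these differences was not tested.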

How the results depend on the processing

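Across the alternatives, 130 of the summary values stayed within their limits and 66 moved, and of the single genes 1166 values stayed, 409 moved and 11 changed sign. Most count changes followed the number of genes that reached the minimum, so counts are given with that number and the share. Genes at least 2-fold higher and lower in both sections than the remaining spots (29 and 10 of 1720, 1.69% and 0.581%) were 11 and 4 of 784 (1.4% and 0.51%) with 60 members per section, 46 and 18 of 3199 (1.44% and 0.563%) with 240, 6 and 1 of 515 (1.17% and 0.194%) with the largest patch alone, 2 and 2 of 328 (0.61% each) with members chosen after thinning to 2000 UMIs, 76 and 35 of 5321 (1.43% and 0.658%) with a gene minimum of 30 UMIs, 1174 and 393 of 16646 (7.05% and 2.36%) with none, 10 and 3 of 723 (1.38% and 0.415%) with dorsal and middle members and 16 and 3 of 852 (1.88% and 0.352%) with members that touched at least 2 others. The higher number was 15 of 1577 (0.951%) with Calb2 left out of the score, and the lower was 16 of 1720 (0.93%) when levels were averaged over spots. Over the same genes, those higher and lower than in relay spots (64 and 28, 3.72% and 1.63%) were 32 and 7 (4.08% and 0.893%) with 60 members, 121 and 64 (3.78% and 2%) with 240, 25 and 3 (4.85% and 0.583%) with the largest patch, 6 and 2 (1.83% and 0.61%) with thinning, 199 and 87 (3.74% and 1.64%) with 30 UMIs, 1242 and 394 (7.46% and 2.37%) with no minimum, 20 and 4 (2.77% and 0.553%) with dorsal and middle and 36 and 9 (4.23% and 1.06%) with touching members, and with no subtraction in the score 17 of 1778 (0.956%) were lower. Between sections (50 and 25 of 2635, 1.9% and 0.949%) they were 18 and 16 of 1249 (1.44% and 1.28%) with 60 members, 9 and 15 of 699 (1.29% and 2.15%) with the largest patch, 8 and 5 of 361 (2.22% and 1.39%) with thinning, 165 and 97 of 6869 (2.4% and 1.41%) with 30 UMIs, 2382 and 1287 of 16646 (14.3% and 7.73%) with no minimum, 42 and 39 of 1804 (2.33% and 2.16%) with dorsal and middle and 25 and 20 of 1652 (1.51% and 1.21%) with touching members. The cause of the moves in share was not tested.

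The share of members in the ventral band (52.5% and 19.2%) was 40.0% with 60 members, 40.8% without Calb2 and 21.7% with no subtraction in the section labelled trained, and 34.2% with 240 members, 5.0% with no subtraction and 27.5% with thinning in the section labelled untrained. The share with at least 4 of the 6 genes (76.7% and 98.3%) was 90.0% and 100% with 60 members, 56.7% and 90.8% with 240, 66.7% and 92.5% without Calb2, 95% and 100% with no subtraction and 10% and 5.83% when the same members were thinned, and 66.7% without Necab1 in the section labelled trained. Thinning the same members left 0 genes higher and 1 lower of 190 between dorsal and ventral spots (7 and 10 of 1121). Oxt changed sign in the section labelled untrained, to −0.55 (60 members), −1.05 (without Calb2), −2.86 (no subtraction), −3.69 (largest patch), −3.52 (dorsal and middle) and −4.21 (touching), and in the section labelled trained to −0.40 (no subtraction) and −2.21 (dorsal and middle). Baiap3 changed to −0.74 in the section labelled trained with dorsal and middle members. Between sections Tspan33 and Cnn3 changed to −0.40 and −0.090 with thinning. The settings on bands, touching members and remaining spots of any depth and the band counts under thinning were chosen after seeing the data. No paired analysis was possible because each label has 1 section and no result comes from a test. For the same reason no replicate could be left out.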

Other observations

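Midline score spots led by cerebellins differed from those led by Calb2 in the section labelled untrained, where 21 spots had Cbln1 or Cbln4 as the highest term in the score and 91 had Calb2. The former lay at a median depth of 8.66 pitches and 4.75 pitches from the midline, the latter at 13.9 and 1.75. Ctxn3 stood at 477 CPM in the cerebellin-led spots and at 86.8 in the Calb2-led spots, Lypd6b at 202 and 59.3 and Cdh13 at 169 and 94.6. These groups were defined by the spots' own values and depend on how well each gene is captured. The section labelled trained had 7 cerebellin-led spots, at a median depth of 26.0 pitches, with no UMI of Ctxn3 or Lypd6b.

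Of 13 measured peptide ligands, 3 in each section were at least 2-fold higher than in the remaining spots and 3 and 5 at least 2-fold lower, against 3.31% and 1.94% of 11949 genes higher and 5.95% and 5.1% lower. Adcyap1, which encodes the peptide PACAP, had log2 ratios of 1.61 and 1.41, and Gal, which encodes galanin, 1.86 and 1.01. Sst, which encodes somatostatin, stood at 49.1, 36.0 and 290 CPM in the dorsal, middle and ventral spots of the section labelled trained and at 37.2, 413 and 193 in those of the section labelled untrained. Of 16 measured peptide and amine receptors 2 and 1 were higher and 3 and 1 lower, against the same shares of all genes. Htr7, a serotonin receptor, stood at 44.0 and 28.2 CPM against 10.9 and 9.51. Foxp2, a forkhead factor of the thalamus, had log2 ratios of 1.06 and 2.08.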
